A study of Mus musculus with 6 samples.

Results

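The genes described here are 10 transcription factor genes of neural development whose coding sequence lies in a single exon, namely Sox1, Sox2, Sox3, Sox21, Sox4, Sox11, Sox12, Pou3f1, Pou3f2 and Pou3f3. They were taken as a list of names and matched by symbol, which found 10 of the 54532 gene identifiers counted. RNA of whole brains from C57BL/6J mice was sequenced at postnatal day 14, with 1 library per brain. The 3 control brains were Mphosph8fl/+ Nestin-Cre+ per the labels, and the 3 mutant brains, labelled Mphosph8∆n, were Mphosph8fl/fl Nestin-Cre+. Both groups therefore carried the recombinase, the controls also carried 1 floxed allele, and deletion was limited to cells derived from those in which the Nestin promoter drove Cre. Microglia and the endothelium of vessels have another origin, and a whole brain includes their RNA. In bulk tissue, fewer cells of a type and less RNA per cell cannot be told apart.

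Sox proteins bind the minor groove of DNA through an HMG box. The SoxB1 factors (Sox1, Sox2 and Sox3) keep neural progenitors undifferentiated, the SoxB2 factor Sox21 opposes them, and the SoxC factors (Sox4, Sox11 and Sox12) act in postmitotic, differentiating neurons. The Pou3f genes encode POU class III factors, which bind DNA with a POU-specific domain and a homeodomain and often act beside Sox proteins. MPP8, the product of Mphosph8, is a chromodomain protein of the HUSH complex, a repressor known to act on long transcription units without introns. The comparison asked whether these intronless regulators differed in level between brains with both alleles floxed and heterozygous floxed controls. The controls carried Cre together with a floxed allele, so they could lose that allele in the same cells and were no wild-type baseline. An effect already present in such heterozygous brains would not show in this comparison.

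The DNA-binding segments are shown first, because they are what makes these genes families and because near-identical genes can share reads. Each line gives 60 bases of coding sequence in the gene's own direction, cut from the GENCODE M21 transcript, with coordinates in GRCm38. The Sox lines begin at the conserved start of the HMG box, and capitals mark the 27 positions at which the 7 genes were not all alike.
Sox1 (chr8:12396517-12396576, plus strand): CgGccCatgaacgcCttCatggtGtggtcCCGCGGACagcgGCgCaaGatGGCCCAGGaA
Sox2 (chr3:34650548-34650607, plus strand): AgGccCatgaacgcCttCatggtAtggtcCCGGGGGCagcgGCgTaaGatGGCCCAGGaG
Sox3 (chrX:60892936-60892995, minus strand): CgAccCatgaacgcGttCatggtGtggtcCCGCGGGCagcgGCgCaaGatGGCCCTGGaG
Sox21 (chr14:118235549-118235608, minus strand): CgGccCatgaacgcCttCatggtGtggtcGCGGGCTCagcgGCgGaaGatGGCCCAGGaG
Sox4 (chr13:28952782-28952841, minus strand): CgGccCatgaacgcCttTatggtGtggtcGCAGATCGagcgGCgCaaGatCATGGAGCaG
Sox11 (chr12:27342199-27342258, minus strand): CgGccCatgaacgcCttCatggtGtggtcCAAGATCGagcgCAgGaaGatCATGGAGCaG
Sox12 (chr2:152397516-152397575, minus strand): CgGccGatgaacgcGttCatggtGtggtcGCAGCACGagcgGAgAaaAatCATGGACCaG

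The 3 genes of the Pou3f family are shown over a later part of the homeodomain, ending in conserved residues of its DNA recognition helix. Capitals mark the 16 of 60 positions at which they were not all alike.
Pou3f1 (chr4:124658820-124658879, plus strand): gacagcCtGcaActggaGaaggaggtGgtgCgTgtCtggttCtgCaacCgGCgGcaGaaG
Pou3f2 (chr4:22486902-22486961, minus strand): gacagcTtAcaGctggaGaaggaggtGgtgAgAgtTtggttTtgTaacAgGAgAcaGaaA
Pou3f3 (chr1:42698457-42698516, plus strand): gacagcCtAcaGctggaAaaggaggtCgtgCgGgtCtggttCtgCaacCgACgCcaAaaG

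Over these windows the SoxB1 genes differed from each other at 5 to 7 positions, the SoxC genes at 6 to 10 and the Pou3f genes at 8 to 14. Sox21 differed from Sox1 and from Sox2 at 6 positions each and from Sox3 at 8. A SoxB gene and a SoxC gene differed at 13 to 20. The longest run of identical bases anywhere in the transcripts of a pair was 48, between Sox4 and Sox11, and the next was 45, between Sox1 and Sox3. The reads were 50 bases long, and no word of 50 bases was shared between any of the 10 genes, so no full-length read from one could match another exactly. With genes outside the set, 0.77% of the words of Sox1 (all with Gm25239, a microRNA gene inside it), 0.4% of those of Pou3f2 and 0.1% of those of Pou3f3 were shared, and none of those of the other 7 genes.

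The targeted gene was read out before the others, to see whether the libraries matched their labels. Levels are given as CPM, read counts scaled to the effective size of the library. Mphosph8 had 55.8, 48.6 and 70.7 CPM in the control brains and 33.1, 27.2 and 26.5 in the mutant brains. The groups did not overlap, and the log2 fold change was -1.02 ± 0.12 (SE, edgeR adjusted p = 0.000157, n = 3 per group), so that part of the RNA remained in the mutant brains. The change is relative to heterozygous floxed controls and gives no share of a wild-type level. Counts were per gene, so they could include reads of transcripts that lack the deleted exon. Mphosph8 was the only gene called lower, 0.00598% of the genes tested. The libraries held from 12956880 to 15223424 counts. Control replicate 3 held 3641 counts of Y-linked genes and 27 of Xist, against 0 to 1 and 11130 to 17697 in the other 5 libraries, so it was the only brain with a male pattern. The labels give no sex, and with 1 such library sex could not be separated from that brain. Control replicate 3 was also the lowest of the 6 libraries for 6 of the 10 genes and the highest for 1, and the part of sex in this was not tested.

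None of the 10 genes passed the threshold used here, an edgeR adjusted p under 0.05 with a fold change over 2, which 0.359% of the 16731 genes tested passed (0.353% higher in the mutant brains and 0.00598% lower). All 10 were detected in every library and passed the filter on low counts. None passed the adjusted p alone, against 0.628% of all genes (0.532% higher and 0.0956% lower), and none had an unadjusted p under 0.05, against 6.51%. DESeq2 and limma-voom likewise gave 0 of 10 at each of these thresholds. The fitted change was positive for 8 genes and negative for 2, with a median of 0.06 on the log2 scale beside -0.01 over all genes tested, and no estimate was larger than 0.15 in either direction. The 95% intervals of the 10 fold changes together ran from 0.776 to 1.34. Every one of them lay within a 1.5-fold change either way, as did the intervals of 74.3% of all genes tested, while 91.5% of all genes had intervals within a 2-fold change. Every mutant brain was above every control brain for 2 of the 10 genes, Sox2 and Pou3f3, beside 6.23% of all genes tested, and below for 0, beside 5.42%. The plot of levels by brain shows the values behind these fits.

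**Figure D1:**
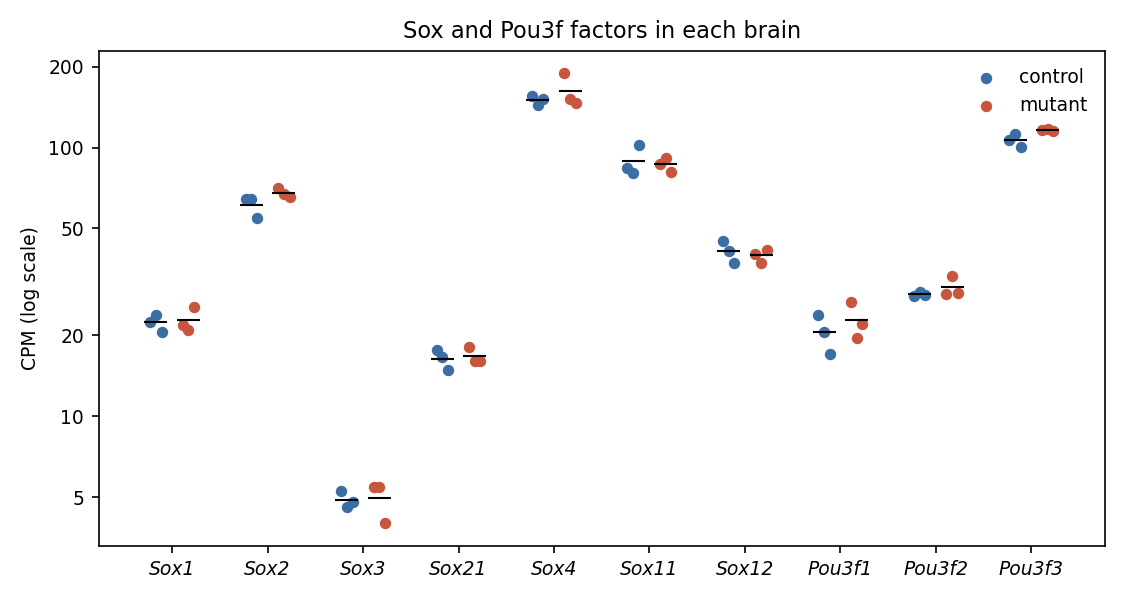
CPM (vertical axis, log scale) of each gene in each of the 3 control (blue) and 3 mutant (red) brains, with a line at the group mean. Levels run from about 4.0 for Sox3 to 189.0 for Sox4, and the groups overlap for every gene except Sox2 and Pou3f3, whose mutant points all lie above the control points.

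Among the SoxB1 genes, Sox2 (ENSMUSG00000074637, GRCm38 chr3:34650405-34652461, plus strand), a factor of neural stem cells that astrocytes keep expressing, had 64.1, 64.4 and 54.9 CPM in the control brains and 70.6, 67.3 and 65.5 in the mutant brains. Every mutant brain was above every control brain, and control replicate 3 was the lowest. The means were 61.1 ± 5.37 and 67.8 ± 2.59 (SD, n = 3 each), and the log2 fold change was 0.15 ± 0.08 (95% interval -0.03 to 0.33, edgeR adjusted p = 0.866). Without control replicate 3 it was 0.08. Sox1 (ENSMUSG00000096014, chr8:12395295-12400126, plus strand) had 22.5, 23.9 and 20.6 CPM in controls and 21.8, 21 and 25.4 in mutants. Its groups overlapped, and its log2 fold change of 0.03 ± 0.11 was within the spread between brains (edgeR adjusted p = 0.992). Sox3 (ENSMUSG00000045179, chrX:60891366-60893430, minus strand), the X-linked member of the group, had 5.25, 4.61 and 4.79 CPM in controls and 5.44, 5.45 and 4.0 in mutants. It had the fewest reads, 409 over the 6 libraries, and with them the widest interval, from -0.37 to 0.40 on the log2 scale around an estimate of 0.02 ± 0.18 (edgeR adjusted p = 0.996).

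The SoxB2 gene Sox21 (ENSMUSG00000061517, chr14:118233232-118237030, minus strand), whose product represses genes that SoxB1 factors activate, had 17.6, 16.6 and 14.8 CPM in the control brains and 18.1, 16 and 16.1 in the mutant brains. The groups overlapped, with means of 16.3 ± 1.44 and 16.7 ± 1.18 (SD, n = 3 each). The log2 fold change was 0.03 ± 0.11 (edgeR adjusted p = 0.99).

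The SoxC genes were among the most highly counted of the set. Sox4 (ENSMUSG00000076431, chr13:28948919-28953713, minus strand) had 155.7, 144.3 and 151.7 CPM in the control brains and 189.0, 151.4 and 146.6 in the mutant brains. Mutant replicate 1 alone lay above all the controls, and the mutant SD of 23.2 was larger than the control SD of 5.78. The log2 fold change of Sox4 was 0.11 ± 0.09 (edgeR adjusted p = 0.931), and it was -0.02 without mutant replicate 1. Sox11 (ENSMUSG00000063632, chr12:27334264-27342574, minus strand), which is strongly expressed in immature neurons, had 83.6, 80.4 and 102.5 CPM in controls and 86.8, 91.3 and 81.4 in mutants. Control replicate 3 was the highest for Sox11, and it was the highest for 6 of 14 markers of progenitors and immature neurons, as control replicate 1 was for another 6 and mutant replicate 1 for 2. The log2 fold change of Sox11 was -0.04 ± 0.09 (edgeR adjusted p = 0.985), and it was 0.08 without that library. Sox12 (ENSMUSG00000051817, chr2:152393611-152398063, minus strand), the weakest activator of the 3, had 44.8, 41.2 and 37.1 CPM in controls and 40.3, 37.3 and 41.5 in mutants. Its groups overlapped, with a log2 fold change of -0.05 ± 0.09 (edgeR adjusted p = 0.984).

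Among the POU class III genes, Pou3f3 (ENSMUSG00000045515, chr1:42695768-42703176, plus strand), a factor of cortical and hippocampal neurons, had 107.1, 112.2 and 100.4 CPM in the control brains and 116.7, 117.7 and 115.2 in the mutant brains. It was the other gene whose groups did not overlap, again with mutant brains higher. The means were 106.6 ± 5.9 and 116.5 ± 1.29 (SD, n = 3 each), and the log2 fold change was 0.13 ± 0.08 (95% interval -0.03 to 0.29, edgeR adjusted p = 0.875). Its estimate ran from 0.09 to 0.17 as each library was left out in turn. Pou3f2 (ENSMUSG00000095139, chr4:22482780-22488366, minus strand), a factor of upper-layer cortical and hypothalamic neurons, had 28.1, 28.9 and 28.3 CPM in controls and 28.5, 33.2 and 28.8 in mutants, and the groups overlapped. Its log2 fold change was 0.09 ± 0.10 (edgeR adjusted p = 0.952), and it was 0.01 without mutant replicate 2. Pou3f1 (ENSMUSG00000090125, chr4:124656807-124660655, plus strand), a regulator of Schwann cell myelination that is also made by cortical neurons, had 23.9, 20.6 and 17.1 CPM in controls and 26.7, 19.6 and 22.0 in mutants. The brains of each group were widely spread for Pou3f1, and the log2 fold change was 0.15 ± 0.13 (95% interval -0.13 to 0.43, edgeR adjusted p = 0.933).

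**Figure D2:**
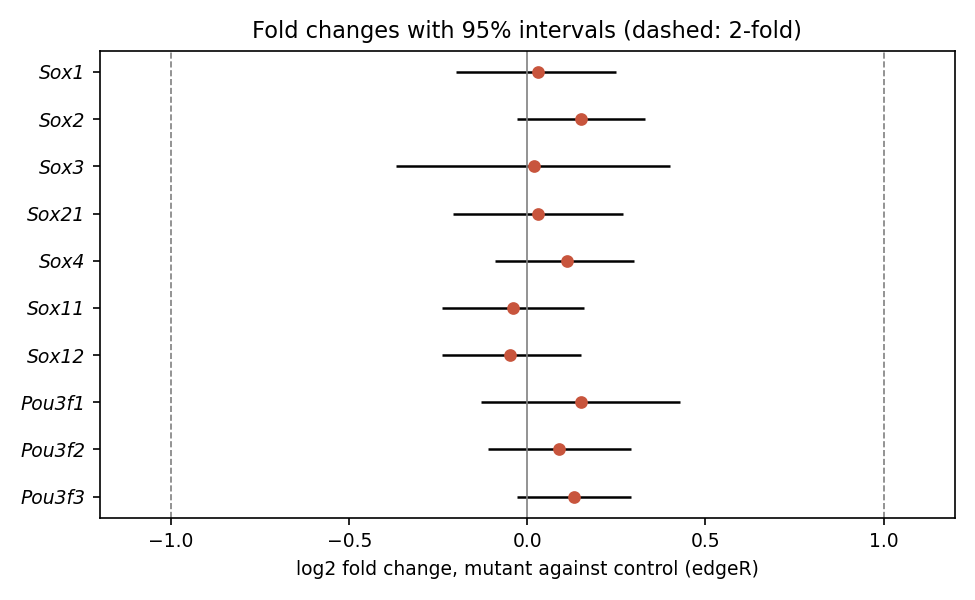
Log2 fold change of mutant against control brains (horizontal axis) for each gene by edgeR, with points at the estimate, bars over the 95% interval and dashed lines at a 2-fold change. Every bar crosses 0 and ends well inside the dashed lines, the widest being that of Sox3.

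Summed over the 10 genes, the level was 552.7, 537.0 and 532.2 CPM in the control brains and 604.1, 560.2 and 546.4 in the mutant brains. Mutant replicate 1 was the highest library for 4 of the genes. The genes whose profile over the 6 libraries was most like the mean standardized profile of the set were Ttc30b, Diras1, Gjb6, Nyap1 and Ahdc1, with Pearson r from 0.988 to 0.995 (n = 6 libraries). They were the highest of 16721 genes compared over only 6 points, and they are given as a description.

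Levels were compared between genes only after division by the exonic length, as CPM per kilobase. In the control brains Sox4 was highest at 31.4 ± 1.2, followed by Sox2 at 29.7 ± 2.61, Pou3f3 at 14.4 ± 0.797, Sox11 at 10.7 ± 1.44 and Sox12 at 9.21 ± 0.872 (SD, n = 3). Below these came Pou3f1 at 5.33 ± 0.874, Pou3f2 at 5.09 ± 0.0763, Sox1 at 4.62 ± 0.343, Sox21 at 4.3 ± 0.379 and Sox3 at 2.37 ± 0.16. The control ranges of the neighbours Sox4 and Sox2, Sox11 and Sox12, Pou3f1 and Pou3f2, and Sox1 and Sox21 overlapped, while those of the other neighbours did not. Among the protein-coding genes tested, Sox4 and Sox2 lay at the 90.3 and 89.7 percentiles of this level and Sox3 at the 27.5 percentile. The order of the 10 genes by mean level was the same in the mutant brains, where Sox4 had 33.9 ± 4.84, Sox2 33.0 ± 1.26 and Sox3 2.4 ± 0.404 CPM per kilobase.

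Structure was compared next, since the set was defined by its lack of introns. Of the 10 genes, 9 had 1 exon in every annotated transcript. Sox12 had 2 annotated transcripts, of which 1 had 2 exons, and the coding part of its longest transcript was in 1 exon. Exonic length ran from 2057 bases for Sox2 to 8311 for Sox11 (median 4624), G and C bases made up from 44.4% of Pou3f2 to 66.4% of Sox3 (median 54.0%), and adenine on the sense strand from 16.1% of Sox3 to 28.7% of Pou3f2 (median 22.3%). The coding part took 957 bases in Sox2 and 1185 in Sox11, so that most of Sox11 was untranslated.

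The 9 genes were then set beside all 323 single-exon protein-coding genes that were tested. Of the 323, 12 were called higher in the mutant brains (3.72%) and 0 lower, against 26 of 14189 protein-coding genes with introns called higher (0.183%). None of the 9 was among the 12, and the median log2 fold change of the 314 single-exon genes outside the set was 0.03, beside 0.09 for the 9. Of the 12, 7 were beta protocadherins, neuronal adhesion genes that lie together in 1 cluster. Without the 17 beta protocadherins tested, 5 of 306 single-exon genes were called higher (1.63%). No protocadherin was taken out of the 14189 genes with introns, so the 1.63% and the 0.183% do not rest on like sets. The 12 called genes had a median exonic length of 3630 bases, a median G and C content of 45.9% and a median sense adenine content of 26.8%. Over all 323 single-exon genes these medians were 2569 bases, 53.3% and 23%. In the 5 outside the cluster these medians were 2316 bases, 49.2% and 27.1%, and in the 7 beta protocadherins 4419 bases, 44.4% and 26.5%. The control levels of the 12 ran from 0.223 to 3.18 CPM per kilobase (median 1.34). Of the 10 genes described here, 9 lay above 3.18, all except Sox3, as did 53.3% of the single-exon genes. These features were compared as values only, and their part in which genes were called was not tested.

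**Figure D3:**
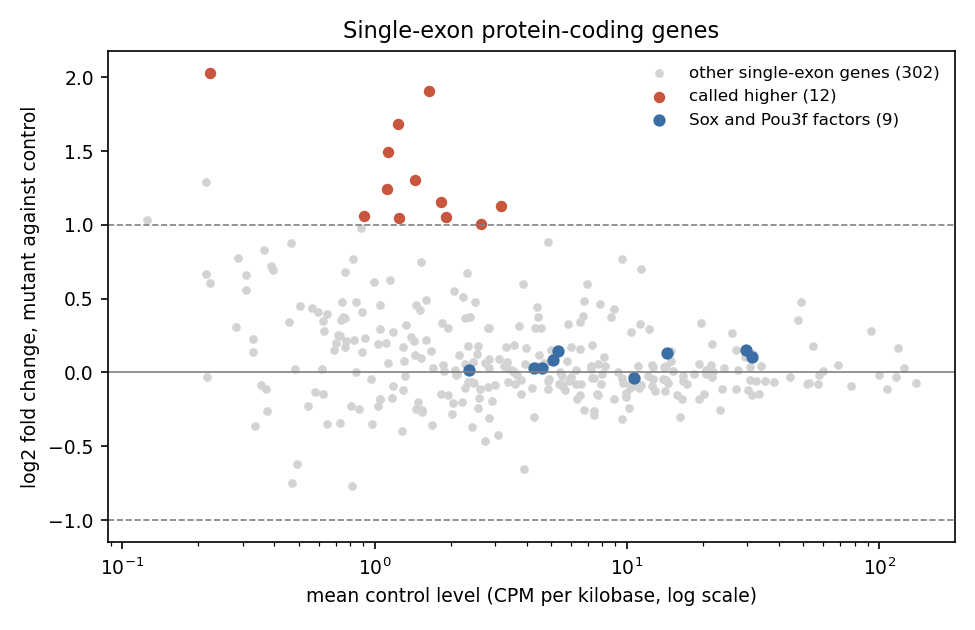
Log2 fold change of mutant against control brains (vertical axis) against mean control level in CPM per kilobase (horizontal axis, log scale) for 323 single-exon protein-coding genes, with 12 called higher in red, 9 Sox and Pou3f genes in blue and the other 302 in grey, and dashed lines at a 2-fold change. The blue points lie close to 0 from 2.37 to 31.4 CPM per kilobase, and the red points lie at 3.18 or below.

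The relatives of these genes were described from lists of names. Pou3f4, the fourth class III gene and also a single-exon gene, had 6.13 ± 0.672 CPM in control and 6.19 ± 0.313 in mutant brains (log2 fold change 0.02 ± 0.16, edgeR adjusted p = 0.996). Sox14, the other SoxB2 gene, had 23 counts in the controls and 25 in the mutants and was left out by the filter. Of 11 Sox genes with introns, 9 were tested, of which 3 were positive and 6 negative, with a median of -0.11 on the log2 scale beside -0.01 over all genes. None passed the edgeR adjusted p, and 1 had an unadjusted p under 0.05. That was Sox10, the determinant of oligodendrocytes, with 74.5 ± 7.49 CPM in controls and 60.7 ± 1.48 in mutants (log2 fold change -0.29 ± 0.09, edgeR adjusted p = 0.21). At the other end was Sox9, an astrocyte factor, with 51.2 ± 1.48 CPM in controls and 57.2 ± 1.08 in mutants (log2 fold change 0.16 ± 0.08, edgeR adjusted p = 0.801). The groups overlapped for neither gene, nor for Sox8 and Sox13, which were lower in every mutant brain. In all, 4 of the 9 had groups that did not overlap, beside 11.6% of all genes tested.

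Of 10 other POU genes, 6 were tested and all 6 had a positive estimate, as did 7967 of all 16731 genes tested. The median of the 6 was 0.20 on the log2 scale. None of the 6 passed the edgeR adjusted p. An unadjusted p under 0.05 was reached by 3 with edgeR, beside 6.51% of all genes tested, by 0 with DESeq2 and by 2 with limma-voom. The estimates ran from 0.17 ± 0.08 for Pou6f1 (122.8 ± 3.58 CPM in controls, 138.0 ± 9.77 in mutants, edgeR adjusted p = 0.763) to 1.09 ± 0.42 for Pou4f2, a factor of retinal and sensory neurons, which had only 25 counts in the controls and 49 in the mutants (edgeR adjusted p = 0.551). Of 15 other transcription factors whose coding part is known to lack introns, 13 were tested, with 4 positive and 9 negative estimates, a median of -0.07 and none past the edgeR adjusted p. One had an unadjusted p under 0.05, and the list ran from -0.62 ± 0.47 for Foxd3 to 0.47 ± 0.23 for Foxb1 (edgeR adjusted p = 0.918 and 0.783). For these lists DESeq2 and limma-voom also passed none at an adjusted p of 0.05.

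Genes that Sox and Pou3f factors are known to regulate, or to act with, were examined as a list of 15, all of which were tested. They included Nes and Fabp7, radial glia genes bound by SoxB1 and class III factors, Tubb3 and Stmn1, neuronal genes activated by SoxC factors, and Crh, Avp and Oxt, hormones of hypothalamic neurons whose formation needs Pou3f2. Of the 15, 3 were positive and 12 negative, as were 8764 of all 16731 genes tested, with a median of -0.12 on the log2 scale. None passed the edgeR adjusted p or had an unadjusted p under 0.05, by edgeR, DESeq2 or limma-voom, and the groups overlapped for all 15. Avp was at the lower end, with 7.52 ± 2.56 CPM in controls and 5.35 ± 1.48 in mutants (log2 fold change -0.48 ± 0.23, edgeR adjusted p = 0.766). At the upper end, Crh had 6.49 ± 0.485 and 7.48 ± 1.28 CPM (log2 fold change 0.20 ± 0.16, edgeR adjusted p = 0.923).

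**Figure D4:**
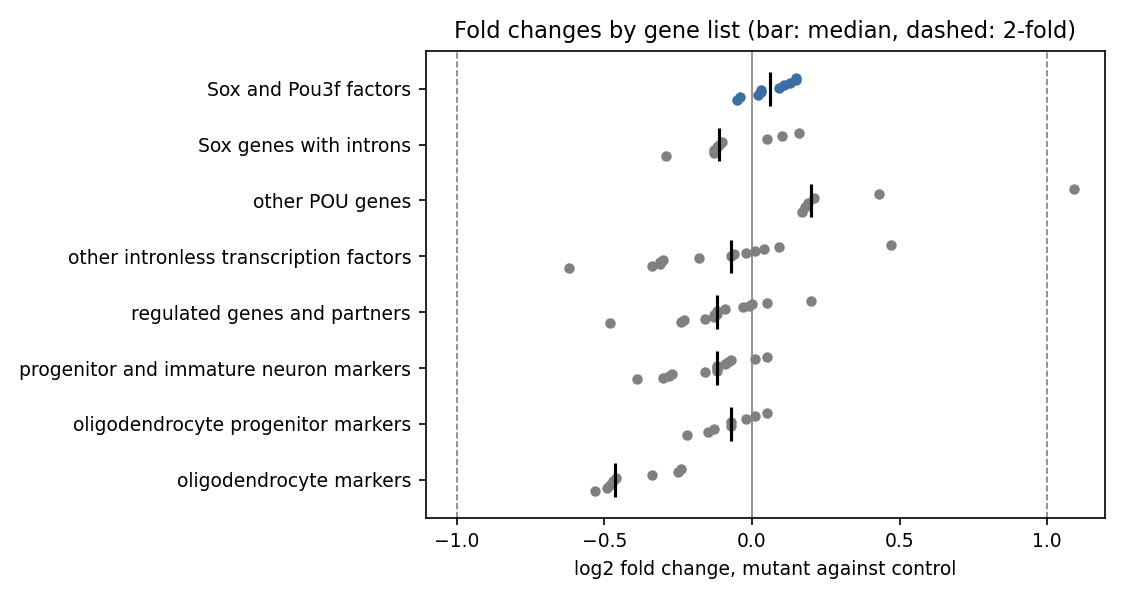
Log2 fold change of mutant against control brains (horizontal axis) for each tested gene of the Sox and Pou3f set (blue) and of 7 other lists (grey), with a bar at each median and dashed lines at a 2-fold change. Points of the set lie from -0.05 to 0.15, and the oligodendrocyte markers all lie below 0.

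Markers of the cell types in which these factors act were read beside them. Of 14 markers of progenitors and immature neurons, 2 were positive and 12 negative (median -0.12 on the log2 scale), and none passed the edgeR adjusted p, with 2 at an unadjusted p under 0.05 (1 by DESeq2 and 1 by limma-voom). They ran from Igfbpl1 at -0.39 ± 0.10 (edgeR adjusted p = 0.129) to Pax6 at 0.05 ± 0.09 (edgeR adjusted p = 0.98). Their summed level was from 998.9 to 1119.5 CPM in controls and from 946.8 to 1061.4 in mutants. Nes, Pax6, Hes5, Dcx and Tubb3 were also in the list of genes that Sox and Pou3f factors regulate or act with. The counts of negative estimates in these lists are therefore not separate results. Over all 16731 genes tested, 8764 had negative estimates. Of 8 astrocyte markers 5 had estimates above 0 (median 0.07), with summed levels from 9184.6 to 10441.1 and from 10065.7 to 10794.6 CPM. Neuron markers had a median of -0.03 and microglia markers of 0.02. None of the astrocyte, neuron or microglia markers passed the edgeR adjusted p, and 1, 1 and 0 of them had an unadjusted p under 0.05 (4, 2 and 0 by DESeq2, and 1, 1 and 0 by limma-voom). Of 8 markers of vessels and choroid plexus, 1 was positive and 7 negative (median -0.14), from Ttr at -0.45 ± 0.11 (edgeR adjusted p = 0.0764) to Flt1 at 0.01 ± 0.09. None passed by edgeR, and 1 did by DESeq2 and by limma-voom.

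Of the marker lists, only that of mature oligodendrocytes held genes that passed the edgeR adjusted p. All 8 markers of mature oligodendrocytes had negative estimates (median -0.47 on the log2 scale). All 8 had an unadjusted p under 0.05 by edgeR, DESeq2 and limma-voom, beside 6.51% of all genes tested with edgeR. The edgeR adjusted p was passed by 2 (5 by DESeq2 and 2 by limma-voom), namely Mal (log2 fold change -0.53 ± 0.11, edgeR adjusted p = 0.0241) and Mog (log2 fold change -0.49 ± 0.10, edgeR adjusted p = 0.0351), both genes of myelin membrane proteins. Neither passed the 2-fold threshold. The summed level of the 8 was 24967.8, 25577.1 and 21275.4 CPM in the control brains and 19598.5, 19105.0 and 16950.9 in the mutant brains, so the groups did not overlap. Of 8 markers of oligodendrocyte progenitors, 2 were positive and 6 negative (median -0.07), and none passed the edgeR adjusted p, with 1 at an unadjusted p under 0.05. Sox10, the Sox gene with the lowest estimate, belongs to this lineage, and the part of its cells in the values of the 10 genes was not tested.

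Most of these genes lie beside, or within, long noncoding RNA genes. There were 14 annotated genes that overlapped 1 of the 10 or lay within 10 kb of it, of which 9 could be tested and none passed the edgeR adjusted p. At an unadjusted p under 0.05 there were 2 by edgeR, 0 by DESeq2 and 2 by limma-voom, and none passed the adjusted p by the other tools. Sox1ot, which spans Sox1 on the same strand, had 18.9, 19.0 and 18.1 CPM in the control brains and 21.6, 21.1 and 24.1 in the mutant brains. The groups did not overlap, and the log2 fold change of Sox1ot was 0.25 ± 0.10 (unadjusted p = 0.0237, edgeR adjusted p = 0.617), beside 0.03 ± 0.11 for Sox1. Sox2ot, which holds Sox2 in an intron, had 43.3 ± 2.75 CPM in controls and 38.6 ± 5.14 in mutants (log2 fold change -0.16 ± 0.10, edgeR adjusted p = 0.893), an estimate of the opposite sign to that of Sox2. Around Pou3f3, the divergent RNA Pantr1 had 60.8 ± 7.28 and 67.5 ± 8.47 CPM (log2 fold change 0.15 ± 0.10, edgeR adjusted p = 0.904), AC122898.1 had 1.75 ± 0.133 and 2.38 ± 0.361 CPM (0.44 ± 0.25, edgeR adjusted p = 0.867), and Pantr2 had 3.62 ± 0.618 and 2.4 ± 0.869 CPM (-0.58 ± 0.26, edgeR adjusted p = 0.713).

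Antisense partners bear on how far single genes can be read where counting ignores strand. Exons of Gm26735 covered 2616 bases of Sox4 on the opposite strand, those of Gm4675 713 bases of Sox21, and those of Gm2164 330 bases of Pou3f1. Gm26735 had 5.92, 5.93 and 8.91 CPM in controls and 14.8, 7.39 and 5.02 in mutants, and its highest library, mutant replicate 1, was also the highest for Sox4. The strand setting of the counting was not given in the sources used here. A sum of 10 counts or more was reached by 27.5% of the 454 genes nested in exons of the other strand, by 33.5% of genes with no overlap, and by 0.399% of the 752 genes nested in exons of their own strand. For such nested genes the counts thus behaved as strand-specific counts would. Gm25239, a microRNA gene within Sox1, and Gm27611 near Sox2 had 0 counts. Gm45560 and Gm14662, near Sox1 and Sox3, had 3 and 34 counts over the 6 libraries and were not tested, nor was Gm2164 with 26. The other tested neighbours were Gm42692 near Sox2, with an estimate of 0.23 ± 0.26 on the log2 scale, Gm4675, with 0.19 ± 0.35, and Gm30731 near Pou3f2, with 0.10 ± 0.33.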

How the data were processed

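RNA-seq of polyA RNA from 6 whole brains (3 control and 3 Mphosph8 mutant, postnatal day 14) was used. The authors trimmed single reads of 50 bases (Trim Galore 0.5.0), removed ribosomal, mitochondrial and technical sequence (Bowtie2 2.3.4.1), aligned with STAR to GRCm38 and counted with featureCounts (Subread 1.6.2). The deposited values are raw counts per Ensembl gene, not normalised.

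Symbols, exons and sequences came from GENCODE M21, which matched 54495 of 54532 identifiers. Genes kept by filterByExpr were fitted in edgeR 4.0.16 (R 4.3.3) on genotype alone after TMM scaling, and tested by quasi-likelihood with Benjamini-Hochberg adjustment over 16731 genes. A gene was called at an adjusted p under 0.05 and a fold change over 2. Standard errors and 95% intervals were derived from the F statistic. CPM uses effective library sizes. DESeq2 1.42.0 and limma-voom (limma 3.58.1) were among the alternatives. The steps were tested on simulated data.

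The named genes were the 10 genes, Mphosph8, genes of each list past the adjusted p or else at its extremes, annotated neighbours within 10 kb, and the 5 genes most like the mean profile. Genes and lists were chosen with earlier results of these data known. Replicates are separate samples per the labels, and each pair differed by more than sampling noise (chi-square per degree of freedom from 3.42 to 12.3). Depth ran from 12956880 to 15223424 counts per library, and the standard errors of the 10 genes from 0.08 to 0.18 on the log2 scale.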

Additional observations from a re-analysis of the deposited data

How the results depend on the processing

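The count of 0 called Sox and Pou3f genes, and of 0 past the adjusted p, held under all 15 alternatives tried for each gene (RLE size factors, DESeq2, limma-voom, no filter, at least 1 CPM in 3 libraries, the replicate block, a GC trend removed with and without the block, protein-coding genes only, and each of 6 libraries left out) and, for the calls, at a fold limit of 1.5. The smallest adjusted p over these 150 values was 0.678. The same alternatives kept the sign of 138 values and turned that of 12. The 12 were estimates near 0: Sox3 was -0.001 with the replicate block and the GC trend removed, and the rest came from leaving out 1 library. Over those 6 fits the log2 fold change ran from -0.061 to 0.081 for Sox1, from -0.059 to 0.154 for Sox3, from -0.036 to 0.088 for Sox21, from -0.016 to 0.176 for Sox4, from -0.107 to 0.078 for Sox11 and from -0.113 to 0.022 for Sox12. The sign turned without control replicate 3 for Sox1, Sox21 and Sox11, without mutant replicate 1 for Sox3, Sox21 and Sox4, without mutant replicate 3 for Sox1 and Sox11, without control replicate 1 for Sox12, and without control replicate 2 or mutant replicate 2 for Sox3. The 4 genes that kept a positive sign ran from 0.08 to 0.19 (Sox2), from 0.02 to 0.27 (Pou3f1), from 0.01 to 0.12 (Pou3f2) and from 0.09 to 0.17 (Pou3f3). Over all genes tested, 60 were called, and 96 without a filter on low counts. Same-numbered brains had deviations correlated at 0.101, -0.0722 and 0.09. With 3 brains per group these values could not settle whether the numbers paired littermates. With the replicate block 62 genes were called and 0 of the 10. With 3 brains per group and 409 reads of Sox3, changes smaller than the intervals could not be detected.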
